A study of Mus musculus with 6 samples.

Results

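The nuclear lamins and the proteins that hold the lamina to the inner nuclear membrane were followed through 10 genes, taken by their symbols from the 54532 rows of the deposited gene table. They are the lamin genes Lmna, Lmnb1 and Lmnb2, the membrane protein genes Lbr, Tmpo, Emd, Lemd3, Sun1 and Sun2, and Banf1, which encodes a small chromatin protein that binds several of them. The study measured RNA from mouse samples labelled lung in 6 libraries. The young group has 3 libraries from mice aged 3 months and the aged group has 3 from mice aged 18 months. The labels state no strain, sex, genotype or pooling. Nor do they say that each library came from its own mouse, and the p-values below therefore rest on a spread between libraries that could be technical.

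Lamins are intermediate filament proteins that form a mesh beneath the inner nuclear membrane. Lmna gives rise to lamins A and C by splicing, while lamins B1 and B2 come from genes of their own and stay farnesylated and attached to the membrane. Membrane proteins of the LEM family tie this mesh to chromatin through the Banf1 protein, and SUN proteins pass through the inner membrane to meet nesprins of the outer membrane. Loss of lamin B1 is widely used as a sign of cellular senescence, and the ratio of A-type to B-type lamins differs between soft and stiff tissues.

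The contents of the libraries went against the tissue label. Among 6 markers of alveolar type 2 cells, 5 stayed under 1 FPKM (fragments per kilobase of gene, scaled to library size) in every library. Sftpc reached at most 0.112 FPKM and Sftpd was listed at 0. All 4 endothelial, all 5 leukocyte, all 4 erythroid, all 3 club cell and all 3 smooth muscle markers also stayed under 1 FPKM in every library. So did 2 of 3 ciliated cell markers, while Tppp3 reached 3.94 FPKM. In contrast, all 6 mesenchymal markers, among them Col1a1 and Vim, stood at 10 FPKM or more throughout. Alveolar type 1 markers were mixed, with 3 of 6 at that level. Their summed level was 257 to 263 FPKM in the young group and 407 to 420 FPKM in the aged group. Within that sum Aqp5, Cav1 and Pdpn were higher in the aged group, Hopx was lower, and Ager and Rtkn2 overlapped between groups. The summed level of the mesenchymal markers was 1167 to 1196 FPKM in the young group and 924 to 961 FPKM in the aged group. Of these, Col1a1, Col1a2, Col3a1 and Pdgfra were lower in the aged group, Pdgfrb was slightly higher, and Vim overlapped between groups. The summed level of 10 kidney markers was 138 FPKM in young library 1 and 28.2 FPKM in young library 3. It was 1.61 FPKM in young library 2 and 2.34 to 3.22 FPKM in the aged group. Kap alone gave 115.7 FPKM in young library 1 and 21.9 FPKM in young library 3. Umod, Slc34a1, Miox, Lrp2, Slc22a6 and Akr1c21 were also highest in those libraries. Slc12a1 was highest in young library 1 only, and Aqp2 and Cubn were highest in neither. The part of these marker differences in the results was not tested. Young and aged below are the labels' words, and every direction is that of the aged group set against the young group. In bulk samples, fewer cells of a type and less RNA per cell cannot be told apart. All 10 genes were well covered, with recovered read counts from 509 (Lemd3) to 13686 (Lmna) per library out of 16649061 to 17456715 reads.

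Most lamina genes fell in the libraries labelled aged, while Lmna and Emd rose slightly. All 10 genes passed the filter of 0.5 FPKM in at least 3 libraries. By limma with Benjamini-Hochberg adjustment over 15197 tested genes, 7 of the 10 were lower, 2 were higher and 1, Sun2, did not pass the threshold of 0.05. The background was high: 60.0% of all tested genes were called, 32.3% lower and 27.7% higher. The median log2 fold change of the 10 genes was -0.31, against -0.03 for all tested genes. The groups did not overlap for 9 of the 10 genes, against 66.9% of all tested genes. Log2 fold changes were taken after adding 1 FPKM to each value, so those of low genes come out too small, and folds are ratios of mean FPKM. With both young libraries that held kidney transcripts left out, 5 of the 10 genes were called, all lower (Lmnb1, Lmnb2, Lbr, Tmpo and Sun1), and 0 were higher by limma, also at an unadjusted p under 0.05. In that fit the background fell as well, to 41.0% of all tested genes called, 21.7% lower and 19.3% higher.

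**Figure D1:**
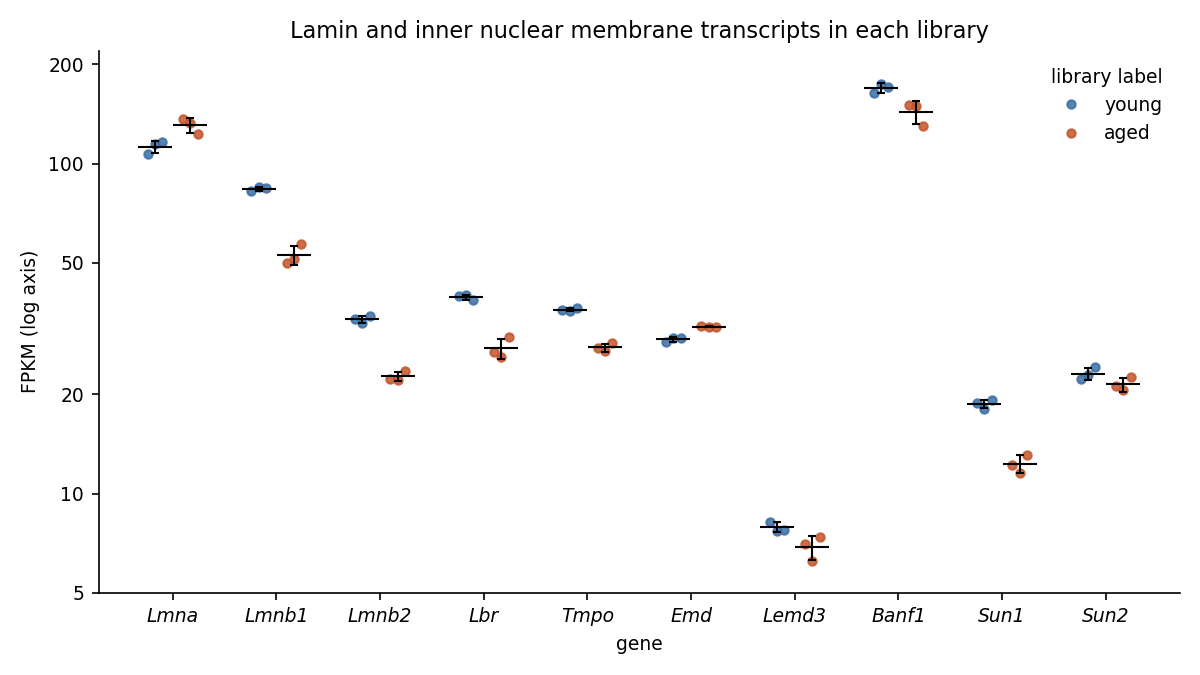
Level of each of the 10 genes in FPKM (log axis), with 1 point per library, blue for libraries labelled young and orange for those labelled aged; black marks are the mean and SD of 3 libraries. Lmnb1 lies at 82.7 to 84.7 FPKM in the young group and at 50.1 to 56.9 FPKM in the aged group, and only the points of Sun2 overlap between groups.

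Both B-type lamins fell. Lmnb1 (lamin B1, ENSMUSG00000024590, chromosome 18, 56707813 to 56753424, plus strand, mm10) stood at 82.7, 84.7 and 84.3 FPKM in the young libraries and at 50.1, 51.4 and 56.9 FPKM in the aged libraries. The groups were well apart, with aged library 3 closest to the young group. The mean was 83.9 ± 1.05 FPKM in the young and 52.8 ± 3.61 FPKM in the aged group (SD; all means are over n = 3 libraries), 1.59-fold lower, with a log2 fold change of -0.66 ± 0.05 SE and a limma adjusted p of 6.04e-05. Lmnb2 (lamin B2, ENSMUSG00000062075, chromosome 10, 80901203 to 80918245, minus strand) stood at 33.9, 32.9 and 34.5 FPKM in the young libraries and at 22.2, 22.2 and 23.6 FPKM in the aged libraries. Its aged values lay close together and below every young value. Lmnb2 was 1.49-fold lower, with a log2 fold change of -0.56 ± 0.04 SE and a limma adjusted p of 3.76e-05.

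The A-type lamin gene went the other way. Lmna (ENSMUSG00000028063, chromosome 3, 88480147 to 88509956, minus strand) stood at 107, 114 and 116 FPKM in the young libraries and at 136, 132 and 123 FPKM in the aged libraries. The groups did not overlap, and again aged library 3 was nearest the young group. The mean rose 1.16-fold, from 113 ± 4.78 to 131 ± 6.69 FPKM, with a log2 fold change of 0.21 ± 0.05 SE and a limma adjusted p of 0.00939. The call was lost in 1 of 17 alternative analyses, the one without both young libraries with kidney transcripts, which leaves 1 young library. The log2 fold change was 0.19 there. The table gives 1 value per gene, so lamin A and lamin C, which share most of their exons, were not separated.

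Together these changes shifted the make-up of the lamin transcripts. The ratio of Lmna to the sum of Lmnb1 and Lmnb2, taken in FPKM within each library and so per length, was 0.919, 0.973 and 0.979 in the young libraries. It was 1.89, 1.80 and 1.53 in the aged libraries, above all young values. The length is 1 deposited value per gene, 5838 bases for Lmna, 2962 for Lmnb1 and 4286 for Lmnb2. The size of the ratio and of each share below depends on these lengths. Lmna thus made up 48.9 ± 0.860% of summed lamin FPKM in the young group and 63.4 ± 2.54% in the aged group, while Lmnb1 went from 36.4 ± 0.561% to 25.6 ± 2.05% and Lmnb2 from 14.7 ± 0.489% to 10.99 ± 0.496%. Summed lamin FPKM was 230.3 ± 5.82 in the young and 206 ± 2.45 in the aged group. The log2 ratio differed by 0.86, and the 2-sided exact permutation p was 0.1, the smallest that 3 against 3 libraries can give. Taken in recovered reads, with no gene length, the log2 ratio differed by 0.85. Of the pair of B-type lamins, the ratio of Lmnb1 to Lmnb2 was 2.44, 2.58 and 2.44 in the young and 2.25, 2.32 and 2.42 in the aged libraries. The groups were only just apart, with a log2 difference of -0.09 and an exact permutation p of 0.1. Without both young libraries with kidney transcripts the difference was -0.15. With the ratio of Sun1 to Sun2 given further on, 3 ratios were tested, and each adjusted p was 0.1 as well.

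**Figure D2:**
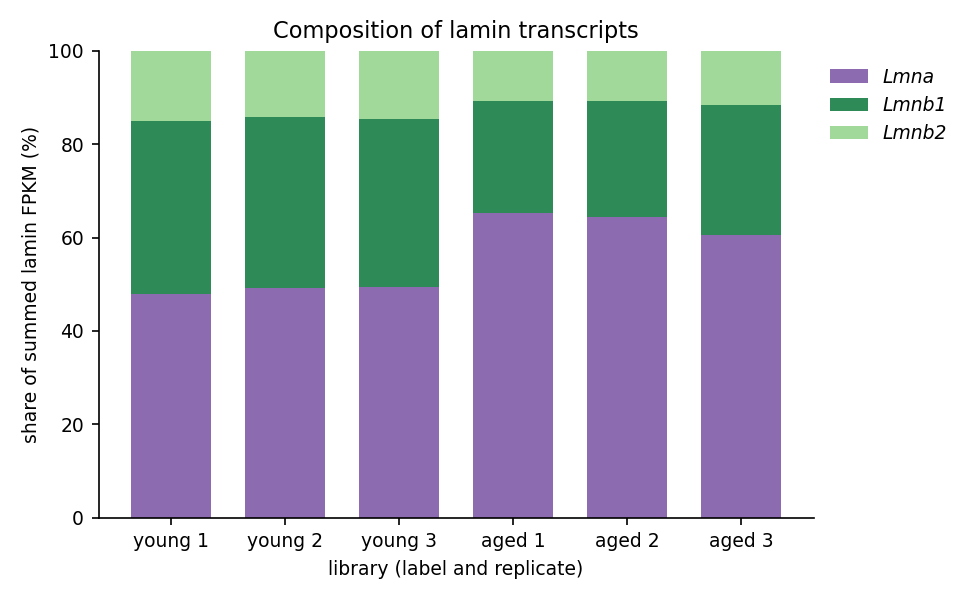
Share of Lmna, Lmnb1 and Lmnb2 in the summed lamin FPKM (%) of each library, 1 stacked bar per library with its label and replicate number. The Lmna share is 47.9% to 49.5% in the young libraries and 60.5% to 65.3% in the aged libraries.

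The partners of B-type lamins in the inner membrane fell too. Lbr encodes the lamin B receptor, which binds B-type lamins and heterochromatin and carries a sterol reductase activity (ENSMUSG00000004880, chromosome 1, 181815335 to 181843046, minus strand). It stood at 39.6, 39.9 and 38.6 FPKM in the young libraries and at 26.9, 26.0 and 29.7 FPKM in the aged libraries. All aged values were below all young ones, with library 3 the highest of the aged. Lbr was 1.43-fold lower, with a log2 fold change of -0.50 ± 0.05 SE and a limma adjusted p of 0.000231. Tmpo encodes the LAP2 proteins, of which membrane-bound forms bind B-type lamins and a nucleoplasmic form binds A-type lamins (ENSMUSG00000019961, chromosome 10, 91147571 to 91181315, minus strand). It stood at 36.0, 35.8 and 36.5 FPKM in the young libraries and at 27.6, 27.0 and 28.5 FPKM in the aged libraries. The spread within each group was small next to the gap between them. Tmpo was 1.30-fold lower, with a log2 fold change of -0.37 ± 0.03 SE and a limma adjusted p of 0.000110. The splice forms of Tmpo were not separated in these gene-level values.

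The other LEM-domain genes among the 10, Emd and Lemd3, changed less than Tmpo. Emd encodes emerin, which binds lamin A and the Banf1 protein (ENSMUSG00000001964, chromosome X, 74254687 to 74261548, plus strand). Its values were 28.8, 29.7 and 29.5 FPKM in the young and 32.3, 32.0 and 31.9 FPKM in the aged libraries. The step was small, yet larger than the spread within either group: 1.09-fold higher, with a log2 fold change of 0.12 ± 0.03 SE and a limma adjusted p of 0.00865. The Emd call was lost in 1 of 17 alternative analyses, the fit that leaves 1 young library, where the log2 fold change was 0.11. Lemd3 encodes MAN1, an inner membrane protein that also restrains Smad signalling (ENSMUSG00000048661, chromosome 10, 120923413 to 120979332, minus strand). It was the lowest of the 10 genes, at 8.21, 7.73 and 7.77 FPKM in the young and 7.01, 6.24 and 7.38 FPKM in the aged libraries. Its groups were close together, and the call was marginal, at a log2 fold change of -0.18 ± 0.06 SE and a limma adjusted p of 0.0450, and it was lost in 12 of 17 alternative analyses, over which the adjusted p ran from 0.0245 to 0.302.

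Banf1 encodes a product that bridges DNA and LEM-domain proteins and helps rebuild the nucleus after mitosis (ENSMUSG00000024844, chromosome 19, 5364641 to 5366645, minus strand). With a deposited gene length of 820 bases, it had the highest FPKM of the 10. It stood at 163.5, 174 and 171 FPKM in the young libraries and at 150.4, 149.6 and 129.8 FPKM in the aged libraries. Here aged library 3 was the one farthest from the young group. Banf1 was 1.18-fold lower, with a log2 fold change of -0.24 ± 0.06 SE and a limma adjusted p of 0.0138. The Banf1 call was lost in 1 of 17 alternative analyses, the fit that leaves 1 young library, where the log2 fold change was -0.28.

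The SUN proteins, which anchor nesprins and so couple the nucleus to the cytoskeleton, did not move alike. Sun1 (ENSMUSG00000036817, chromosome 5, 139200637 to 139249840, plus strand) stood at 18.8, 18.1 and 19.2 FPKM in the young libraries and at 12.2, 11.6 and 13.1 FPKM in the aged libraries. The groups were clearly apart, and Sun1 was 1.52-fold lower, with a log2 fold change of -0.57 ± 0.05 SE and a limma adjusted p of 0.000116. Sun2 (ENSMUSG00000042524, chromosome 15, 79724070 to 79742536, minus strand) stood at 22.2, 22.9 and 24.2 FPKM in the young and at 21.1, 20.5 and 22.6 FPKM in the aged libraries. Its groups overlapped, and its log2 fold change of -0.11 had a 95% interval of -0.22 to 0.01 and a limma adjusted p of 0.101. Without aged library 3, Sun2 passed the threshold, at -0.14 and an adjusted p of 0.0386 (0.0386 to 0.510 over the alternatives). The ratio of Sun1 to Sun2 was 0.844, 0.789 and 0.793 in the young and 0.578, 0.562 and 0.579 in the aged libraries. These did not overlap (log2 difference -0.50, exact permutation p of 0.1, the smallest possible).

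**Figure D3:**
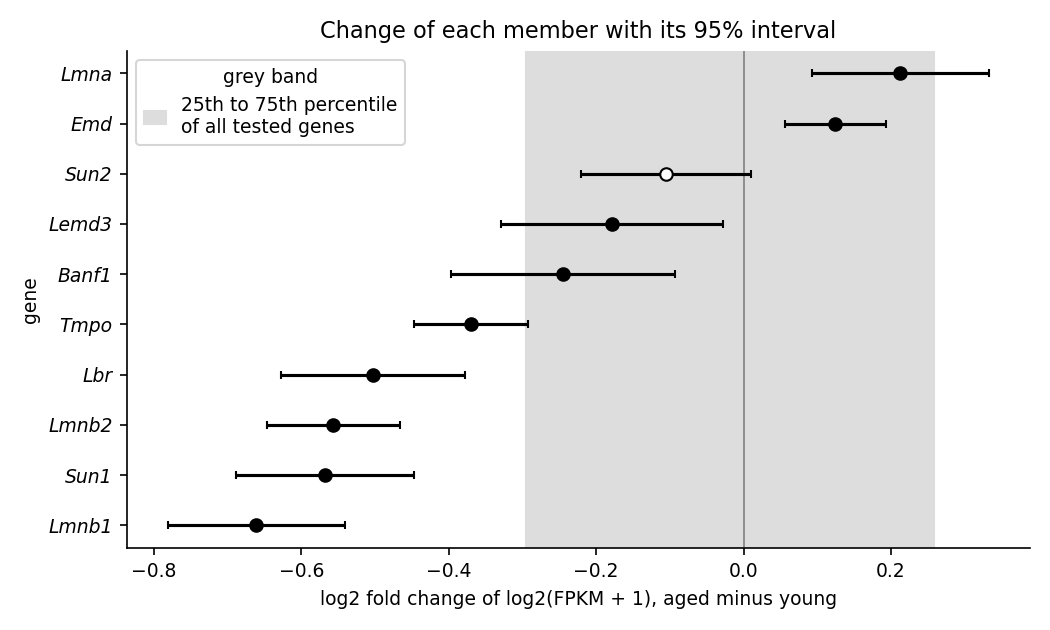
Log2 fold change of log2(FPKM + 1), aged minus young, for each gene with its 95% interval from limma; filled points passed the threshold and the open point (Sun2) did not. The grey band runs from the 25th to the 75th percentile of all tested genes, -0.30 to 0.26, and Lmnb1, Sun1, Lmnb2, Lbr and Tmpo have their points below it.

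The order of the levels in FPKM, which also rests on the deposited gene lengths, changed in its middle. In the young group the order from high to low was Banf1, Lmna, Lmnb1, Lbr, Tmpo, Lmnb2, Emd, Sun2, Sun1 and Lemd3, and no neighbours in it overlapped. In the aged group Emd moved to rank 4, above Tmpo, Lbr and Lmnb2. There Banf1 and Lmna overlapped, as did Tmpo and Lbr, and Lmnb2 and Sun2. Among pairs of the 10 genes, Lmnb2 and Sun1 had the most similar pattern, with a root mean square difference of 0.03 between their log2(FPKM + 1) values after each was centred on its mean over the 6 libraries. The least similar pair was Lmnb1 and Lmna, at 0.45. By the same measure over 5062 protein-coding genes with a mean of at least 10 FPKM, the genes most like Lmnb1 were Idh3g, a subunit gene of a mitochondrial isocitrate dehydrogenase, and Cpd, carboxypeptidase D (0.02 each), followed by Lama5, Ctdsp2 and Lamc1 (0.03 each). Those most like Lmna were Gpaa1 (0.01), Cltb, Chchd2 and Swi5 (0.02 each) and Capg (0.03). These are descriptions of 6 libraries that fall into 2 groups.

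Promoter sequences were searched for motifs in those of the 10 genes that have an entry, whatever their direction. The RefSeq promoter table (GRCm38.p6, the assembly of mm10) holds 9 of the 10 genes and lacks Lmnb1, the gene that fell most. The 250 bases before the most upstream start site were searched on both strands. CCAAT, the motif bound by NF-Y and common in genes of the cell cycle, was present in 7 of the 9 (not in Lmnb2 or Lmna). It was present in 34.5% of 27025 promoters of this length. Those promoters were not limited to tested genes or matched in base content, so the shares are not like for like. The motif TTTGAA, found in many genes of late cell cycle phases, was present in 2 of the 9 (Lbr and Sun2), against 16.3%. TTTNNCGC, a loose form of the E2F site, was present in 1 (Banf1), against 4.40%. Lbr, Tmpo, Sun1 and Lmnb2 are shown since they fell most among the genes with an entry. Capitals mark CCAAT or TTTGAA or their reverse complements, and each sequence runs 5′ to 3′ towards the start site on the gene's own strand.
Lbr: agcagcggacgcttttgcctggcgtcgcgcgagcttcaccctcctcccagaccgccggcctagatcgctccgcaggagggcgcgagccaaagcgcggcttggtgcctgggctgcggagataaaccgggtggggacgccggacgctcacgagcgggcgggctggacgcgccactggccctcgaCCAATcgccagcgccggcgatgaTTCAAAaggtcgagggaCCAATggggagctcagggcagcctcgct
Tmpo: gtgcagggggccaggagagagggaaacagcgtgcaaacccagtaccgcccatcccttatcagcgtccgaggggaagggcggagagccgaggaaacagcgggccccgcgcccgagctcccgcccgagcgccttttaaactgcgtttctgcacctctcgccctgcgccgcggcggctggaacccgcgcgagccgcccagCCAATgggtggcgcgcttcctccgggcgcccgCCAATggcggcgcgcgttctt
Sun1: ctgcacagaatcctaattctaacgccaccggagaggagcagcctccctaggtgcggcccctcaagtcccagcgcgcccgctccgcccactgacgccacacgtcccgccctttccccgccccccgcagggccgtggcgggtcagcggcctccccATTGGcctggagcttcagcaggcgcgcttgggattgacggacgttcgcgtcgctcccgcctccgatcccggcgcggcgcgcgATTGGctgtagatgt
Lmnb2: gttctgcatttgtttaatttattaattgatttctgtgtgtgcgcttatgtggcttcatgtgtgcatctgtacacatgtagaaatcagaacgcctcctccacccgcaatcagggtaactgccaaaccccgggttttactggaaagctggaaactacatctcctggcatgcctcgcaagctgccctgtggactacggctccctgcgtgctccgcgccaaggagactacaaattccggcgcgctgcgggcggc
Lbr (chr1:181842402-181842651, minus strand) holds CCAAT beginning 68 and 28 bases before the start, with TTTGAA, as its reverse complement, between them at 45. Tmpo (chr10:91171620-91171869, minus strand) holds CCAAT at 53 and 21 bases before the start, and Sun1 (chr5:139200387-139200636, plus strand) holds it on the other strand at 97 and 15. Lmnb2 (chr10:80918246-80918495, minus strand) holds neither motif. Emd, which rose, also has 1 CCAAT, and Sun2, which did not pass the test, has 2. The start site used for Tmpo lies 9696 bases inside the gene as the deposited table bounds it. That for Lmna lies 6604, for Lbr 645 and for Lemd3 2 bases inside, and that for Banf1 lies 231 bases upstream of the gene. A match describes letters only.

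Other genes of the nuclear envelope were read from lists of related genes. In the list of 10 other inner nuclear membrane and lamina-linked proteins, 7 were lower and 3 did not pass. Their median log2 fold change was -0.32, and 32.3% of all tested genes were called lower. Of the 7, Tm7sf2 met the filter only through the young libraries, and under a filter of a mean of at least 1 FPKM, which drops it, 6 of 9 were lower. By limma 0 of the 10 were higher, also at an unadjusted p under 0.05, while voom on recovered reads and limma with median centring each called 1 higher. Nrm (nurim), a membrane protein with many membrane spans, was 2.47-fold lower, at 7.62 ± 0.954 against 18.8 ± 0.918 FPKM (limma adjusted p = 4.15e-05). Tm7sf2, which encodes a sterol reductase related to Lbr, was low in all libraries, at 1.14 ± 0.177 FPKM in the young and 0.327 ± 0.0528 FPKM in the aged group. Lemd2, a further LEM-domain gene, was 1.58-fold lower, Tmem201 (SAMP1) 1.37-fold lower and Prr14, a tether of heterochromatin to the lamina, 1.47-fold lower. Ankle2, a LEM-domain gene that promotes binding of the Banf1 protein to chromatin, had a log2 fold change of -0.10 and an adjusted p of 0.0946.

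Of 5 enzymes that process lamins, 1 was higher, 2 were lower and 2 did not pass, with a median of -0.02. The share called among all tested genes was 60.0%, so this count lies near the background. Zmpste24, the protease that matures prelamin A, rose 1.40-fold, from 13.4 ± 0.408 to 18.8 ± 0.101 FPKM (limma adjusted p = 6.07e-05). Rce1, which trims farnesylated proteins, was 1.42-fold lower, and Fnta, a subunit of farnesyltransferase, was 1.07-fold lower with a marginal adjusted p of 0.0402, a call lost in 13 of 17 alternative analyses. Icmt, the methyltransferase of the same route, stood at 25.02 ± 0.819 and 25.9 ± 1.02 FPKM (adjusted p = 0.377).

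Among 10 nesprins, torsins and torsin cofactors, 2 were higher, 3 lower and 5 did not pass, with a median of 0.02. Beside them, 27.7% of all tested genes were higher and 32.3% lower. Syne2, which encodes nesprin-2, a partner of both SUN proteins, was 1.67-fold lower, at 6.97 ± 0.344 against 11.7 ± 0.0568 FPKM (limma adjusted p = 3.33e-05). Syne3 (nesprin-3, a link to intermediate filaments) rose 1.18-fold to 15.9 ± 0.520 FPKM. Syne1 (nesprin-1) stood at 1.92 ± 0.0653 and 1.89 ± 0.0230 FPKM (adjusted p = 0.846). Tor1a, the torsin A gene, was 1.21-fold lower, Tor1aip2 (LULL1), a torsin activator, 1.13-fold lower, and Tor3a 1.12-fold higher. Syne3, Tor3a, Tor1a and Tor1aip2 each lost their call in 1 of 17 alternative analyses, the fit that leaves 1 young library. The log2 fold changes in that fit were 0.15 for Syne3, 0.15 for Tor3a, -0.25 for Tor1a and -0.16 for Tor1aip2.

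The list of kinases, phosphatases and ESCRT proteins that take the nuclear envelope apart or reseal it held 14 genes. Of these, 3 rose, 6 fell and 5 missed the threshold (median -0.05). With 60.0% of all tested genes called, 27.7% higher and 32.3% lower, these counts lie near the background. Chmp2a, an ESCRT-III subunit, was 1.81-fold lower, at 38.5 ± 2.67 against 69.6 ± 3.75 FPKM (limma adjusted p = 4.77e-05). Chmp7, which recruits ESCRT-III through the LEMD2 protein, was 1.25-fold lower, Ist1 1.32-fold lower and Spast (spastin) 1.38-fold lower, while Chmp4b, the main filament subunit, was 1.17-fold higher. Lpin1, a lipid phosphatase, was 1.27-fold higher and Vps4b, an ATPase of ESCRT, 1.09-fold higher. The Vps4b call (adjusted p = 0.0270) was lost in 6 of 17 alternative analyses, and the Lpin1 call in 1. Vrk1, the kinase that releases the Banf1 protein from DNA, stood at 7.68 ± 0.148 and 7.19 ± 0.532 FPKM (adjusted p = 0.223).

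**Figure D4:**
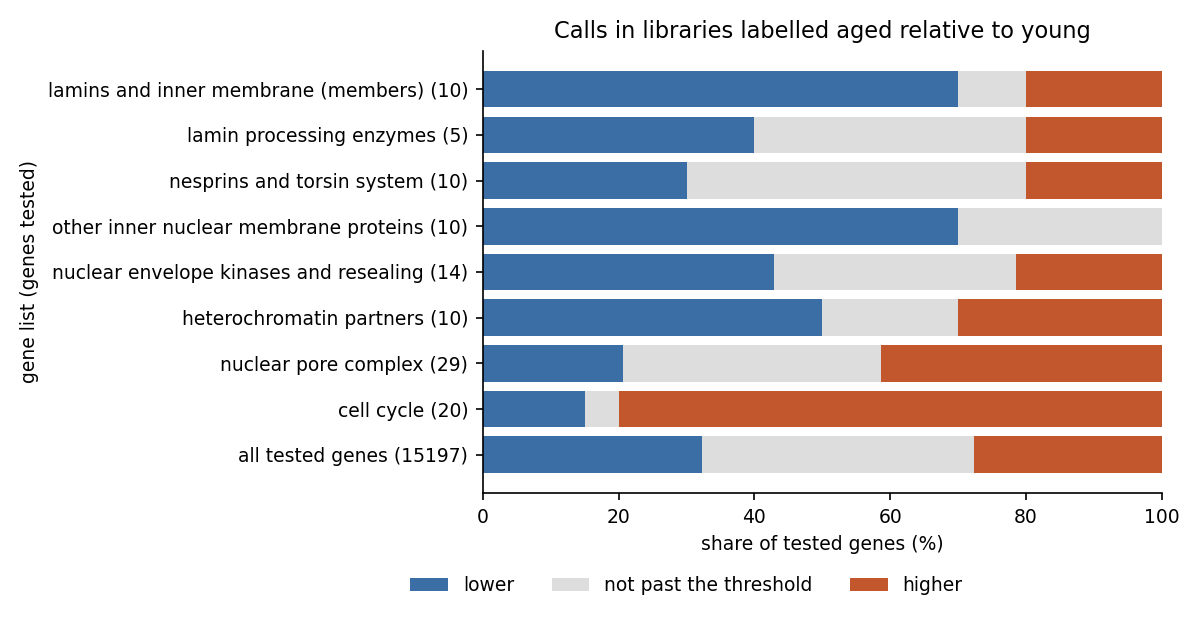
Share of tested genes (%) that were lower (blue), not past the threshold (grey) or higher (orange) by limma in each gene list and in all 15197 tested genes, with the number tested in parentheses. The 10 lamina genes and the 10 other inner membrane genes each have 7 lower, and the cell cycle list has 16 of 20 higher.

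Lamin B1, LAP2 and the lamin B receptor are often more abundant in dividing cells, so a cell cycle list was read beside them. Of its 20 genes, 16 were higher and 3 lower, and 1 missed the threshold, with a median log2 fold change of 0.36. All tested genes together had 27.7% higher and 32.3% lower. Aurka, a mitotic kinase gene, rose 1.98-fold, from 35.1 ± 0.671 to 69.4 ± 0.805 FPKM (limma adjusted p = 2.78e-06), Ccnb1 (cyclin B1) 1.62-fold, and Mcm7 and Mcm5, of the replicative helicase, 1.63-fold and 1.57-fold. Most genes of this list were higher, while Lmnb1, Lbr and Tmpo were lower. Whether cell division had a part in either was not tested. Exceptions were Mki67 (the Ki-67 antigen), at 54.3 ± 2.07 against 76.0 ± 1.87 FPKM, and Ccna2 and Aurkb, 1.19-fold and 1.23-fold lower. Top2a stood at 116 ± 2.54 and 117 ± 4.51 FPKM (adjusted p = 0.894).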

How the data were processed

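RNA of 6 libraries was sequenced on an Illumina NovaSeq instrument, and read pairs were aligned with HISAT2 2.0.5, per the labels' protocols. Per the submitters' processing notes the genome was mm10. No source used here gives the counting program, the annotation or whether strand was used, so reads of genes that overlap on opposite strands may not be told apart. Of such neighbours only Dnah14, beside Lbr, exceeded 35 reads in any library (at most 422, against at least 2098 for Lbr).

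The authors deposited FPKM values. In every library, 100% of values above 0, multiplied by gene length, were whole multiples of 1 step within a tolerance of 0.01, which gave whole reads. With 3 reads, a gene of 1 kilobase stands at 0.173 to 0.177 FPKM. Replicates differed by more than sampling noise (chi-square per degree of freedom 2.25 to 4.93), and no libraries were merged.

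After a log2(FPKM + 1) transform, genes with at least 0.5 FPKM in at least 3 libraries were tested with limma 3.58.1 in R 4.3.3, its variances moderated along a trend in mean level, as a 2-sided test. P-values were adjusted by Benjamini-Hochberg across every tested gene, with a threshold of 0.05. Ratios were tested by exact permutation of libraries. The fitting code was tested on simulated reads. Python 3.11.15 was used for the rest.

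The 10 genes and the other lists were chosen with earlier results of these data known. Named were all 10, up to 4 called genes per list and direction by smallest p, and 14 genes picked by role, with the genes most like Lmnb1 and Lmna. Of the genes on the lists, 2 were matched through a synonym, of which Nupl1 was listed at 0. Alternatives changed the pseudocount (0.1, 0.5), the filter (none, or a mean of at least 1 FPKM), the scaling (median centring, TPM, quantiles), the moderation, the replicate block, the libraries and the tool (voom).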

Additional observations from a re-analysis of the deposited data

How the results depend on the processing

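Across 17 alternatives, of which the one without both young libraries with kidney transcripts (young replicates 1 and 3) was chosen after seeing the data, Lmnb1, Lmnb2, Lbr, Tmpo and Sun1 stayed called lower, and none of the 10 genes changed direction. Log2 fold changes of Lmnb1 ran from -0.71 to -0.59. Without those 2 young libraries, which leaves 1 young library assumed to vary like the others, 5 of the 10 genes were called rather than 9, and 0 higher rather than 2, while calls over all genes went from 9115 to 6234 and those higher from 4212 to 2938. With the replicate number as a block, 8 of the 10 were called, Lemd3 being lost, and 8441 genes in all against 9115. The labels do not pair the libraries by number, and deviations of same-numbered libraries correlated at -0.01 to 0.02. Blocking left the log2 ratio of Lmna to B-type lamins at 0.86 (exact sign-flip p of 0.25, the smallest possible), of Lmnb1 to Lmnb2 at -0.09 and of Sun1 to Sun2 at -0.50.

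Other genes named reversed only where they had not passed: the log2 fold change of Syne1 was 0.0510 with median centring, 0.0041 with TPM, 0.0164 with voom and 0.0190 without both young libraries, and -0.0319 to 0.0002 with single libraries left out. That of Top2a was -0.0108 with quantiles and -0.0169 to 0.0374 with single libraries left out, and that of Nup153 was -0.0484 to 0.0404 likewise. The Fnta call was lost in most settings, so that 1 lamin-processing enzyme was lower rather than 2 in 13 of 17. Higher genes numbered 4 rather than 2 among nesprins and torsins, 5 rather than 3 among heterochromatin partners and 1 rather than 0 among other inner membrane proteins with median centring; voom gave the same for the last pair of lists. Without both young libraries 0 nesprins and torsins were higher, 1 was lower rather than 3, and 1 resealing gene was higher rather than 3. Heterochromatin partners had 1 higher with no filter, without both young libraries, without young replicate 3 and without aged replicate 1. The cause of these shifts was not tested. A planned quasi-likelihood count test was not run. Depth did not limit the 10 genes, and 3 libraries a group limit every exact test to p of 0.1.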

Other observations

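Nuclear pore genes went both ways. Of 31 listed, 29 were tested, 12 were higher, 6 lower and 11 did not pass, with a median log2 fold change of 0.10. Over all tested genes, 60.0% were called, 27.7% higher and 32.3% lower, so the share of pore genes called was near that of all genes. Gle1, an mRNA export factor of the cytoplasmic face, rose 1.92-fold, from 7.46 ± 0.486 to 14.4 ± 0.607 FPKM (limma adjusted p = 3.20e-05). Nup214 rose 1.72-fold, Aaas (aladin) 1.62-fold and Ndc1, a pore membrane protein, 1.57-fold. Nup188 and Nup205, of the inner ring, were 1.30-fold and 1.22-fold lower, Nup88 was 1.36-fold lower, and Ahctf1 (ELYS), which seeds pores on chromatin, was 1.26-fold lower. Tpr, of the nuclear basket, was 1.08-fold lower with a marginal adjusted p of 0.0409, a call lost under most alternatives. Nup153, which binds lamins, stood at 18.6 ± 1.25 and 18.7 ± 0.348 FPKM (adjusted p = 0.946).

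Among 10 heterochromatin partners of the lamina, 3 were higher, 5 lower and 2 did not pass, with a median of -0.05. The shares over all tested genes were 27.7% higher and 32.3% lower. Hdac3, a deacetylase that works with LEM-domain proteins, was 1.45-fold lower, at 14.7 ± 0.502 against 21.2 ± 0.235 FPKM (limma adjusted p = 4.71e-05). Cbx1 (HP1 beta) was 1.31-fold lower and Ehmt1, a histone methyltransferase, 1.40-fold lower, and Trim28, a corepressor, was 1.15-fold lower. Suv39h2, Suv39h1 and Setdb1, which methylate the same histone residue, were 1.42-fold, 1.17-fold and 1.15-fold higher, the last 2 with adjusted p of 0.0242 and 0.0308 and each lost in 6 of 17 alternative analyses. Cbx5 (HP1 alpha), which binds the lamin B receptor, stood at 71.6 ± 1.66 and 75.8 ± 3.81 FPKM (adjusted p = 0.150).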
